A study of Mus musculus with 22 samples.

Results

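Gh, Prl, Cga, Pomc, Tshb, Lhb and Fshb, the genes that encode the peptide hormones of the pituitary, were followed across 22 bead arrays of mouse testis, brain and muscle. They are 7 of the 16593 genes named on the array, each measured by 1 of its 25697 probes, and were taken by gene symbol. They were selected on their brain levels, which were high in the libraries labelled wild type 2 and wild type 3, so the brain values below are a description and were not tested. Testis and muscle values played no part in the choice.

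Hormone cells of the anterior pituitary are divided by product. Somatotropes make growth hormone (Gh), lactotropes prolactin (Prl), and corticotropes the adrenocorticotropin precursor proopiomelanocortin (Pomc), which melanotropes of the intermediate lobe and neurons of the hypothalamic arcuate nucleus also make. Thyrotropes and gonadotropes share the alpha subunit Cga, which pairs with the beta subunit Tshb in thyrotropin, Lhb in luteinizing hormone and Fshb in follicle-stimulating hormone.

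All mice were C57BL/6J, either wild type or mutant in Sgms1, which encodes the Golgi enzyme sphingomyelin synthase 1, and the series speaks of males. Testis came from 4 wild-type and 4 mutant mice aged 27 weeks. A separate set of 7 mice aged 17 weeks, 3 wild type and 4 mutant, gave both brain and muscle, so that 15 mice gave 22 arrays, and by mouse identifier each replicate of a group was a separate animal. The sources used here do not give the kind of Sgms1 mutation, the brain regions taken or how the pituitary was handled at dissection.

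The promoters of the hormone genes are shown first, and their part in the brain levels was not tested. RefSeq (GRCm38.p6) gave a window of 250 bases before and 50 bases after a listed start for 6 genes, all except Gh, which lies at chr11:106300261-106303703. Shown are Prl (chr13:27057320-27057619, plus strand), Cga (chr4:34893529-34893828, plus strand), Lhb (chr7:45420696-45420995, plus strand) and Tshb (chr3:102782665-102782964, minus strand), as the gene with the most matches to the POU1F1 core, both genes with an NR5A1 element and the thyrotropin subunit for comparison. Each reads 5′ to 3′ on the strand of its gene, and capitals mark the matches to ATGNATA (core of sites bound by POU1F1, the factor of somatotropes, lactotropes and thyrotropes), TGNCCTTG (element bound by NR5A1 in gonadotropes) and TATAAA (the TATA box), searched on both strands.
Prl: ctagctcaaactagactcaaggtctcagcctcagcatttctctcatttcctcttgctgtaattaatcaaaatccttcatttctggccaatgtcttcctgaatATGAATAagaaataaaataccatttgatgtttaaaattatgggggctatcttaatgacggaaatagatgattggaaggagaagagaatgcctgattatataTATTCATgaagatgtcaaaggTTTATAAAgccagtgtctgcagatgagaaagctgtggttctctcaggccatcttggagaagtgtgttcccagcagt
Cga: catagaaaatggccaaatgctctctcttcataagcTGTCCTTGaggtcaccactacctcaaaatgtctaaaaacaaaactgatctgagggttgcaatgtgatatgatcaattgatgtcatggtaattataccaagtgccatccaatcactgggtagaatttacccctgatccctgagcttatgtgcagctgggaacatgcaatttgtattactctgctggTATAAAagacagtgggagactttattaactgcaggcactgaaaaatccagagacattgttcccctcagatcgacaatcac
Lhb: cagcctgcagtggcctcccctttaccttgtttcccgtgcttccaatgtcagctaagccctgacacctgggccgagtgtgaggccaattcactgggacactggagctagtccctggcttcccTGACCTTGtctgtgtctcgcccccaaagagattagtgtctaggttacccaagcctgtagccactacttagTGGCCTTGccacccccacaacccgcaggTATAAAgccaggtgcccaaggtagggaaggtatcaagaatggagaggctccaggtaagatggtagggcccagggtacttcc
Tshb: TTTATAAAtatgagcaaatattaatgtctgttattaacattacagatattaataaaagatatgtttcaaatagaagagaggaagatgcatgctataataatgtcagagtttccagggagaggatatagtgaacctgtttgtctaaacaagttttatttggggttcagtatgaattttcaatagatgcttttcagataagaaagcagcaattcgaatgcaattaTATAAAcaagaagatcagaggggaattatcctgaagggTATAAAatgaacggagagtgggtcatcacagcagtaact

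The TATA box letters were found in all 6 windows, against 13.6% of the 32851 promoters of the same length. In Cga, Fshb, Lhb, Pomc, Prl and Tshb a match on the gene's strand started between 31 and 24 bases before the listed start. In Prl and Tshb, 2 matches on opposite strands overlapped within 1 run of 8 capitals. The POU1F1 core was found in Prl alone of the 6 windows, with matches that start 148 and 47 bases before the start, and in 8.84% of all promoters. The NR5A1 element was found in Cga, 215 bases before the start, and in Lhb, 129 and 59 bases before it, against 6.71% of all promoters. Pomc at chr12:3954695-3954994 (plus strand) and Fshb at chr2:107059602-107059901 (minus strand) held the TATA letters only among these 3 motifs. A match describes these letters, and whether a factor binds there was not measured. The start listed for Lhb and that for Tshb lay inside the span that RefSeq gives the gene, so other starts of these 2 genes were not covered.

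**Figure D1:**
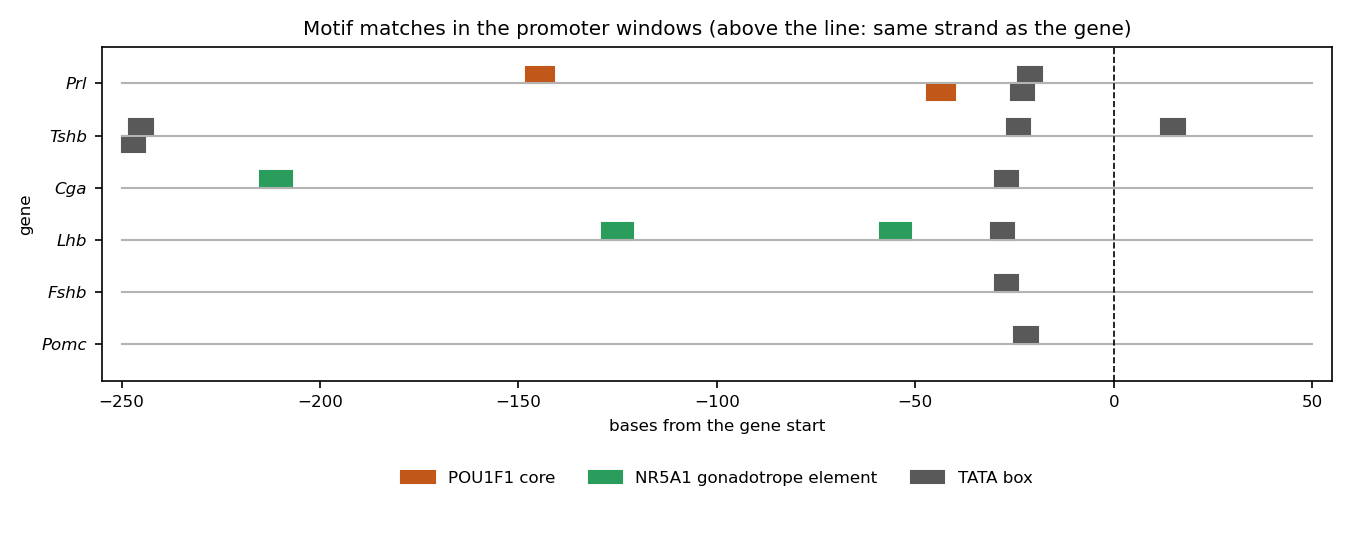
Matches to 3 motifs in the promoter windows of 6 hormone genes, with the distance from the listed start in bases on the x axis and 1 gene per line. Blocks above a line lie on the strand of the gene and blocks below it on the other strand, and every gene has a TATA box match (grey) that starts 31 to 24 bases before the start.

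Before the members are described, the libraries were checked against their labels. Array medians of intensity were 93.7 to 107 (testis), 112 to 143 (brain) and 133 to 143 (muscle), and the number of arrays limits the precision. Of the measured tissue markers, 6 of 7 were detected on every array of brain (the exception, at background on all 7, was Snap25), 6 of 7 on every array of testis and 8 of 8 on every array of muscle. Levels below are log2 intensities after background correction and normalization within a tissue, and a probe was called detected at a detection p under 0.05. Sgms1 went against the label in 2 brain libraries, at 6.62 in wild type 3 (8.31 and 8.05 in wild type 1 and 2) and at 8.12 in mutant 2 (6.57, 6.29 and 6.54 in the others labelled mutant), while in muscle it ran from 7.76 to 8.11 in wild type and from 7.13 to 7.49 in mutants. Some probes, chosen after their values were seen, differed between mice in brain and in muscle. The Y-linked Eif2s3y was not detected in the brain library labelled mutant 2 (4.22, others 7.77 to 8.52), and in muscle was not detected in the library labelled wild type 3 (4.26, others 7.44 to 8.46). Other sex-linked probes did not follow it, since the Y-linked Kdm5d was detected in both of these libraries (6.22 and 5.27), the Y-linked Uty too (5.43 and 4.89), and both Xist probes in none of the brain or muscle libraries. Tmem68 was likewise lowest in brain mutant 2 (4.72, others 9.14 to 10.40) and in muscle wild type 3 (4.25, others 6.51 to 7.48). Ccng2 was low in brain wild type 3 and mutant 3 (5.01 and 5.29, others 7.59 to 8.51), and in muscle was low in mutant 2 and mutant 3 (4.82 and 4.80, others 6.44 to 6.92). For these 3 probes, brain wild type 3 had the pattern of muscle mutant 2, and brain mutant 2 that of muscle wild type 3. The genotype of these 2 brain libraries is therefore written as labelled throughout.

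Pituitary hormone transcripts were abundant in the brain library labelled wild type 2, present in that labelled wild type 3 and at or near background in the other 5. These 2 libraries stood highest for Gh, Prl, Cga, Pomc, Tshb and Lhb, always with wild type 2 above wild type 3. Library wild type 1 did not share this, so the libraries labelled wild type did not form 1 level. In bulk tissue, a larger number of cells of a type and more transcript per cell cannot be told apart.

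**Figure D2:**
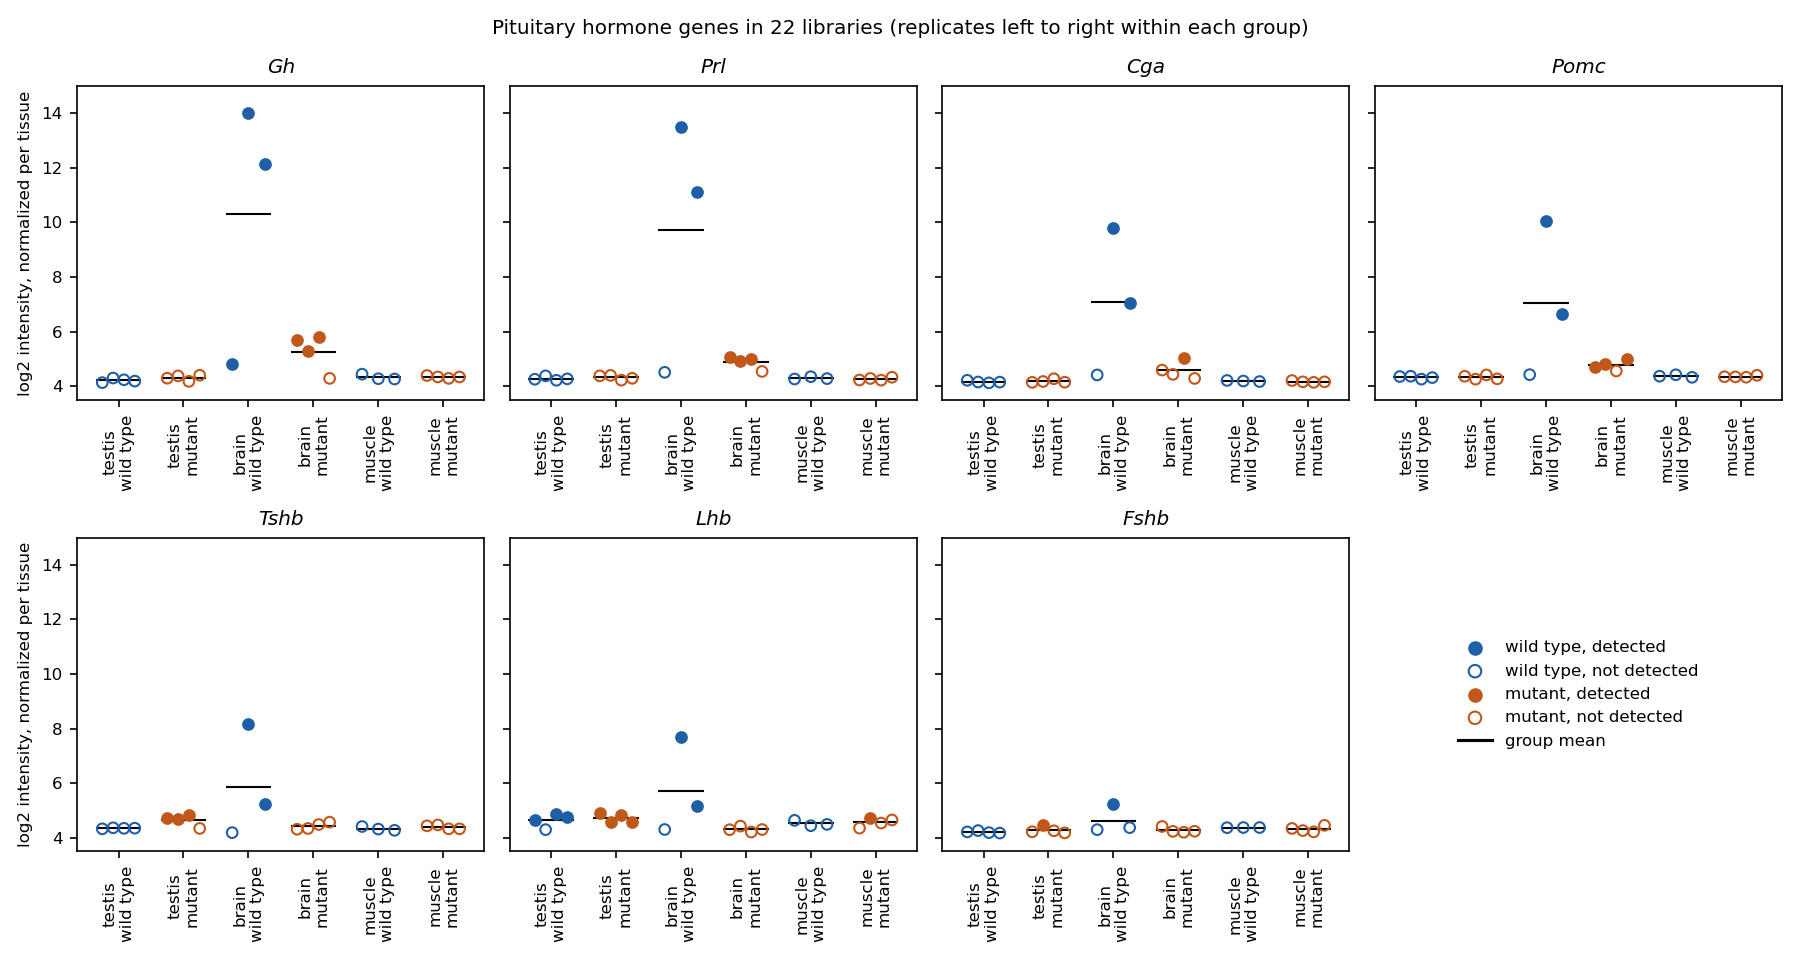
Log2 level (normalized per tissue) of each hormone gene on the 22 arrays, with 1 point per library in 6 groups, filled where detected, and a line at the group mean. In brain the middle and right wild-type points lie at 14.02 and 12.15 for Gh and at 13.48 and 11.13 for Prl, while every testis and muscle point lies between 4.12 and 4.90.

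Gh, the growth hormone of somatotropes, stood at 4.81, 14.02 and 12.15 in brain libraries wild type 1, 2 and 3, and at 5.70, 5.27, 5.78 and 4.29 in mutant 1 to 4. The deposited intensities behind these levels were 136, 16732 and 4432 in wild type and 133, 127, 139 and 98.3 in mutants. Gh was detected in 6 of 7 brain libraries, all except mutant 4, so a low level was measured outside the 2 high libraries too. Wild type 2 lay 302-fold above the highest of the other 5 libraries, mutant 3, and wild type 3 lay 82.5-fold above it.

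Prl, the milk hormone of lactotropes, had levels of 4.51, 13.48 and 11.13 in wild type 1, 2 and 3 and of 5.05, 4.94, 5.00 and 4.54 in mutant 1 to 4. Its intensities were 126, 10932 and 2225 in wild type and 117, 118, 117 and 104 in mutants. It was detected in 5 of 7 libraries, wild type 2 and 3 and mutant 1 to 3, and the 5 low libraries spanned 0.54 on the log2 scale. Over the highest of them wild type 2 was 346-fold and wild type 3 67.6-fold higher.

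Pomc, the precursor of adrenocorticotropin, melanocyte-stimulating hormone and beta-endorphin, had levels of 4.42, 10.05 and 6.65 in wild type 1, 2 and 3 and of 4.70, 4.80, 4.56 and 4.98 in mutant 1 to 4. Its intensities were 122, 1051 and 185 in wild type and 110, 115, 109 and 112 in mutants. Besides wild type 2 and 3 it was detected in mutant 1, 2 and 4. Wild type 2 was 33.5-fold and wild type 3 was 3.19-fold above the highest other library.

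Cga, the alpha subunit common to the glycoprotein hormones, had levels of 4.41, 9.79 and 7.05 in wild type 1, 2 and 3 and of 4.59, 4.43, 5.02 and 4.28 in mutant 1 to 4. Its intensities were 122, 892 and 215 in wild type and 109, 108, 118 and 98.3 in mutants. Only mutant 3 joined the 2 high libraries above the detection limit. The fold over mutant 3 was 27.3 in wild type 2 and 4.09 in wild type 3.

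Tshb, the beta subunit of thyrotropin, had levels of 4.18, 8.18 and 5.24 in wild type 1, 2 and 3 and of 4.31, 4.34, 4.48 and 4.57 in mutant 1 to 4. Lhb, the beta subunit of luteinizing hormone, had 4.30, 7.70 and 5.16 in wild type and 4.29, 4.42, 4.21 and 4.30 in mutants. Both were detected in wild type 2 and wild type 3 alone, so the other 5 libraries give only a bound, set at the higher of the probe's own level and the lowest level detected on each array. Against that bound, Tshb was at least 11.4-fold higher in wild type 2 and at least 1.49-fold higher in wild type 3. Lhb was at least 8.20-fold and at least 1.41-fold higher.

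Fshb, the beta subunit of follicle-stimulating hormone, was detected in wild type 2 alone, at 5.22. The other libraries lay at 4.29 and 4.37 in wild type 1 and 3 and at 4.41, 4.23, 4.20 and 4.23 in mutant 1 to 4. Wild type 2 was at least 1.47-fold higher, and Fshb gave no fold for wild type 3, which lay below the bound.

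Set against the other probes on the array, the hormone genes stood among those that varied most between brain libraries. The log2 range over the 7 libraries was 9.73 for Gh and 8.98 for Prl, the widest and the next widest of the 25697 probes. A range of at least 2 was reached by 53 probes, 0.206% of all, and by 6 of the 7 hormone genes, all but Fshb at 1.02. A range of at least 1 was reached by 357 probes, 1.39% of all. Among the 5 other libraries Gh ran from 4.29 to 5.78, and the range was between 0.21 and 0.73 for the other 6 genes. These ranges used the values by which the genes were picked, and they bear on nothing beyond the description.

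The fold between the 2 high libraries is given for each hormone gene, and whether these folds differ could not be tested. Wild type 2 exceeded wild type 3 by 3.66-fold for Gh, 5.11-fold for Prl, 5.80-fold for Lhb, 6.67-fold for Cga, 7.67-fold for Tshb and 10.5-fold for Pomc. Fshb gave 1.81-fold and was detected in wild type 2 only. Their order depended on the background correction. The ratio of uncorrected intensities was highest for Pomc at 5.70 too, but was 4.91 for Prl, 4.14 for Cga, 3.78 for Gh, 2.84 for Tshb, 2.27 for Lhb and 1.16 for Fshb. Pomc was at the top and Fshb at the bottom in both, and with 1 array per library these ratios have no error of their own.

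By label, the mean of the 3 wild-type brain libraries was 10.33 ± 4.87 (SD, n = 3) for Gh and that of the 4 mutant libraries 5.26 ± 0.69 (SD, n = 4), a difference of -5.07. The difference was -4.82 for Prl, -2.50 for Cga, -2.28 for Pomc, -1.44 for Tshb, -1.42 for Lhb and -0.36 for Fshb. Wild type and mutant overlapped for all 7 genes, since wild type 1 lay within or below the range of the mutants. With wild type 2 and 3 left out, the difference of wild type 1 and the mutants was 0.46 for Gh, 0.38 for Prl, 0.34 for Pomc, 0.24 for Tshb, 0.17 for Cga, 0.01 for Lhb and -0.02 for Fshb. Without wild type 2 alone the difference was -3.22 for Gh, -2.94 for Prl, -1.16 for Cga, -0.78 for Pomc, -0.43 for Lhb, -0.29 for Tshb and -0.06 for Fshb. Without wild type 1 alone it was -7.83 for Gh, -7.40 for Prl, -3.77 for Cga, -3.54 for Pomc, -2.23 for Tshb, -2.06 for Lhb and -0.50 for Fshb. The size of each difference thus rested on which library labelled wild type was kept. Without the 2 libraries whose Sgms1 level went against the label, it was -4.15 for Gh, -4.14 for Prl, -2.49 for Pomc, -2.47 for Cga, -1.74 for Lhb, -1.73 for Tshb and -0.48 for Fshb, and wild type 2 was then the only high library. In limma, 0 of 15264 probes kept in brain passed an adjusted p of 0.05 between genotypes as labelled (0% called, 586 at an unadjusted p under 0.05). Gh, Prl, Cga and Pomc are among the probes kept but were picked on these values, so the count is no test of them. Without the 2 libraries whose Sgms1 level went against the label, 6 probes passed. Sgms1 was among these 6, but its own values had marked the 2 libraries left out.

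Genes whose brain pattern was most like that of the hormone genes were sought among 325 probes detected in at least 2 brain libraries with a log2 range of at least 1. Likeness was Pearson's r over the 7 libraries with the mean profile of the 6 hormone genes other than Fshb. Each of these 6 is part of that mean, which raises its r, and had an r of 0.95 to 1.00 with it. As the libraries are few and shared, and 1 of them dominates, r is a description. Dlk1, a membrane protein of the Notch ligand family that hormone cells of the pituitary make, was most alike (r = 0.95). It stood at 6.83, 9.04 and 7.42 in wild type 1, 2 and 3 and at 6.77, 6.85, 7.15 and 6.95 in mutant 1 to 4, so that wild type 2 and 3 were again the highest. Next came Gpatch11, a G-patch protein, at 0.90, the cytochrome P450 Cyp2f2 at 0.85, the LIM protein Pdlim5 at 0.84 and the G protein subunit Gnb4 at 0.80. Of the 325 probes, 2 had an r of at least 0.9 and 5 of at least 0.8.

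Slc7a14, of the cationic amino acid transporter family, came after these (r = 0.80). It was high at 8.57, 8.29 and 7.99 in wild type 2, wild type 3 and mutant 3 and between 5.72 and 6.15 in the other 4, so it separated 3 libraries where the hormone genes separated 2. A further probe of this gene gave 8.75, 8.64 and 8.43 against 6.29 to 6.51, and the other, dim, gave 5.14, 5.14 and 5.06 against 4.54 to 4.95. The others of the 15 were Gm1943, Klf2, Cuedc1, Nos1ap, Ch25h, Zfr2, Esm1, Plekhf1 and Zbtb7a, with r from 0.80 down to 0.67. All 15 were highest in wild type 2. Without that library 3 of the 15 remained (Gpatch11, Slc7a14 and Plekhf1), and Dlk1 kept an r of 0.86 but a range under 1. Without background correction, 54 probes passed the filter and 2 of the 15 remained, Dlk1 and Slc7a14.

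**Figure D3:**
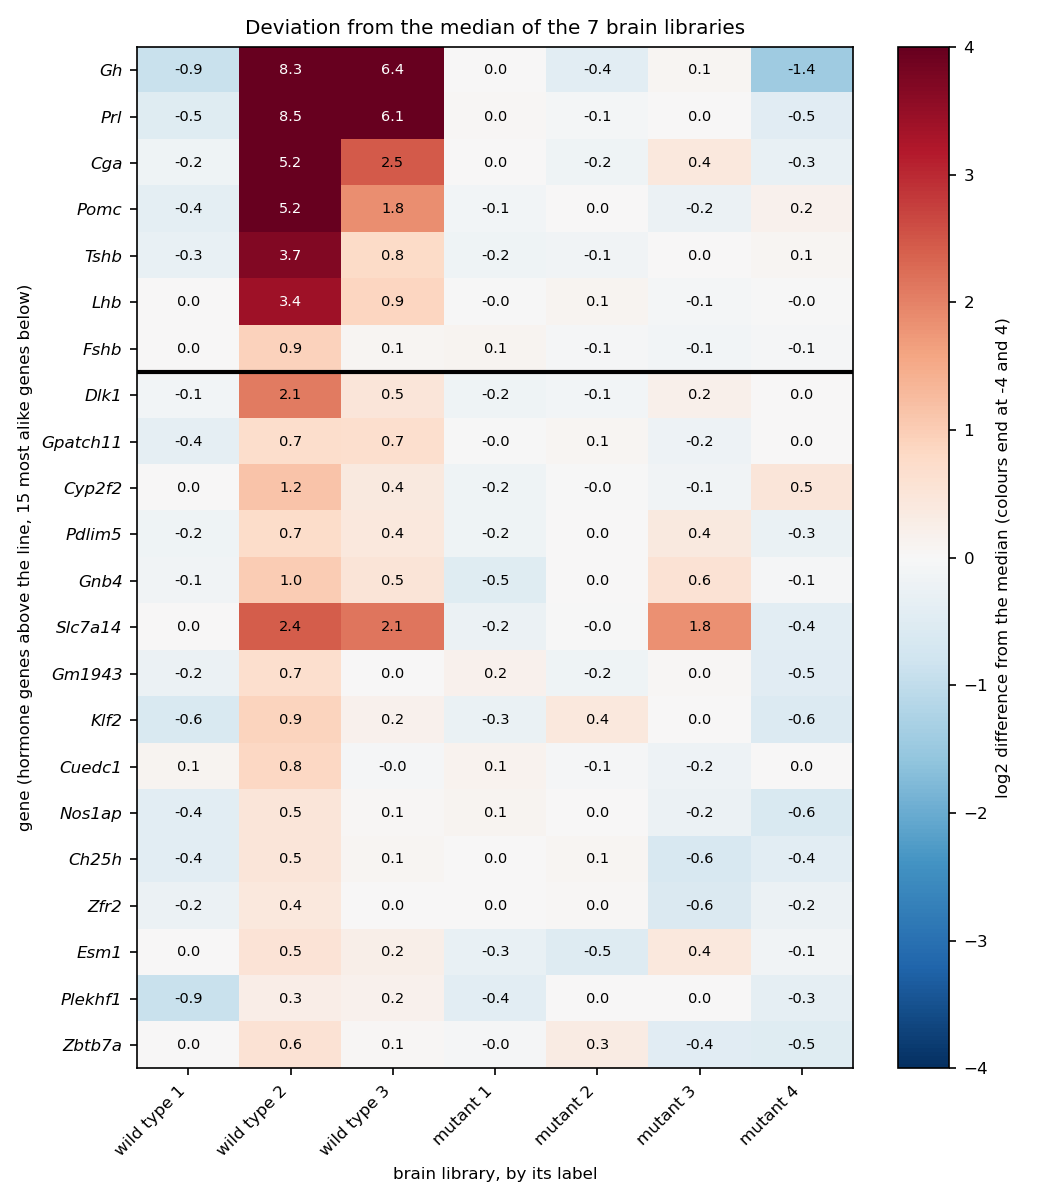
Log2 difference of each gene (rows, the 7 hormone genes above the line and the 15 most alike genes below) from its median over the 7 brain libraries (columns, by label), with red above and blue below the median. Wild type 2 is the top library in every row, and outside the hormone genes only Dlk1 and Slc7a14 exceed the median by more than 2 there.

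Other genes of the pituitary axis were read from written gene lists. In limma, with genotype as labelled, 0 genes of any of these lists passed in brain, against 0% of all probes. The pituitary transcription factors, which set the identity of hormone cells, had 11 of 14 genes on the array. Pou1f1, the gene of the factor POU1F1 named above for somatotropes, lactotropes and thyrotropes, was not among these 11. The list thus gives no level for it. Gata2 (7.09 to 7.45), Isl1 (7.07 to 7.29) and Six3 (5.08 to 5.80) were detected in all 7 brain libraries, Lhx3 in 2 (4.92 in wild type 1 and 4.67 in wild type 2), and 7 in none, among them the corticotrope factor Tbx19, the melanotrope factor Pax7 and the gonadotrope factor Nr5a1. The widest range was 0.72, for Six3, which was highest in mutant 1. Six6 ranged over 0.36 and was detected in none.

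Of the receptors through which the hypothalamus acts on the pituitary, all 10 were measured. Gnrhr, the gonadotropin-releasing hormone receptor of gonadotropes, was detected in wild type 2 alone, at 4.95, beside 4.17 to 4.35 in the other 6. Ghrhr, the growth hormone-releasing hormone receptor of somatotropes, was detected in wild type 2 alone too, at 4.92, beside 4.20 to 4.36. Detection in wild type 2 only was found for 218 probes, 0.848% of all, 28 of them at a detection p under 0.01 as for these 2 receptors. In wild type 3 both lay at 4.35, not detected. Trhr, the receptor of thyrotropin-releasing hormone, had the widest range at 0.83 and its highest level, 6.22, in mutant 4, and the somatostatin receptor Sstr5 ranged over 0.69 with 5.12 in mutant 3. The dopamine receptor Drd2, which also marks striatum, stayed between 7.15 and 7.45.

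Among the genes of peptide processing and secretory granules, 10 of 12 were measured. Dlk1, listed there as a pituitary gene, had a range of 2.26, and Pam, the enzyme that amidates peptides, ranged over 1.15 with its highest level, 6.28, in wild type 1. Pcsk1n, an inhibitor of prohormone convertase, ranged over 0.60 and the granule protein Scg5 over 0.46. The convertase Pcsk1 was detected in no brain library. Over the list, the median deviation from each gene's brain median was 0.07 in wild type 2 and 0 in wild type 3.

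Hypothalamic peptides had narrower ranges than the pituitary hormones. The hormones were picked for high levels in some of these libraries, so this contrast is only a description. Of the releasing hormones and dopamine synthesis, 9 of 10 were measured, and Oxt (oxytocin), Avp (vasopressin), Trh and Th had the widest ranges, 0.78, 0.72, 0.71 and 0.55. Oxt was highest in mutant 3 at 8.32 and Avp in mutant 2 at 7.17, while Trh and Th were highest in wild type 2 at 8.22 and 6.90. Of the other neuropeptides, 9 of 10 were measured, and the widest range was 0.59, for Npvf. Nms followed at 0.54, Pmch (melanin-concentrating hormone) at 0.43 and Hcrt (orexin) at 0.40. The last 2 were detected in all 7 libraries, but Npvf and Nms in 1 each, so the ranges of Npvf and Nms lie near background.

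Related genes of the same families were mostly at background. Of the 24 listed relatives, which include the placental prolactin family, 21 were measured and 13 were detected in no brain library. The widest ranges were 0.90 for Prl7a1, highest in mutant 3 at 5.21, 0.74 for Prl2c3, highest in wild type 2 at 5.75, 0.71 for Prl7d1 and 0.57 for Prl8a9, both highest in mutant 4.

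**Figure D4:**
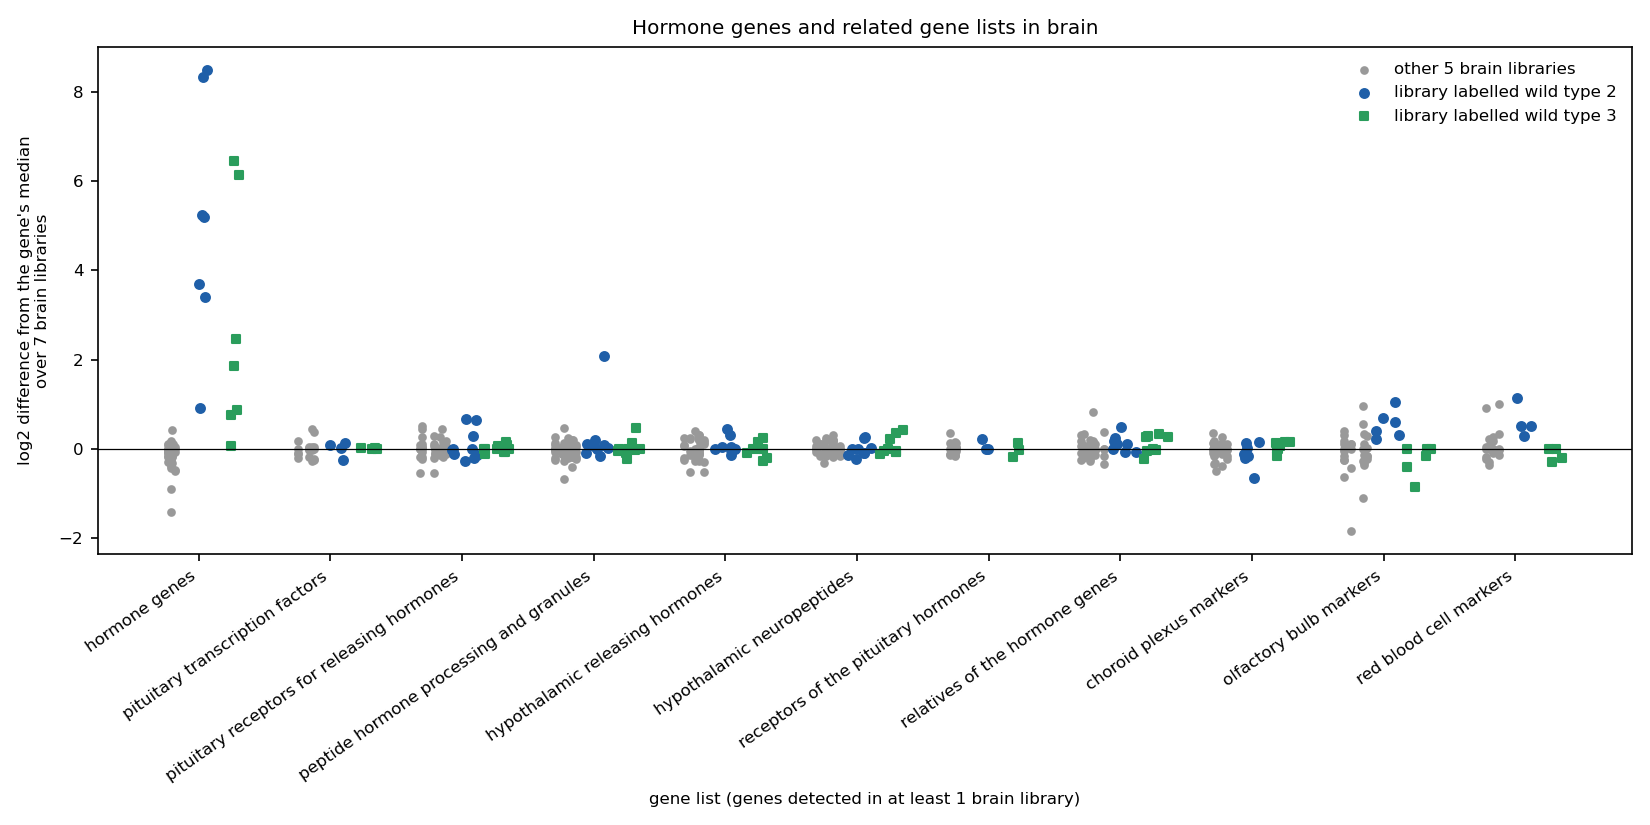
Log2 difference of each gene from its median over the 7 brain libraries, by gene list, for genes detected in at least 1 brain library, with wild type 2 as blue circles, wild type 3 as green squares and the other 5 libraries in grey. Outside the hormone genes the widest blue departure is Dlk1 in the granule list at 2.1, and the olfactory bulb and red blood cell lists lie above 0 in wild type 2.

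Markers of other regions and cells also varied between the brain libraries. Of the 6 olfactory bulb markers, 3 were detected in all 7 libraries, and the median deviation was 0.51 in wild type 2, -0.08 in wild type 3 and between -0.49 and 0.30 in the mutants. Their summed level was 838 in wild type 2 and 425 in wild type 3, and ran from 282 to 749 in the mutants. Doc2g ranged over 2.53, from 4.61 in mutant 3 to 7.14 in wild type 2, with 5.59 in wild type 3. All 4 measured red blood cell markers were detected in every brain library, and their median deviation was 0.52 in wild type 2, -0.11 in wild type 3 and 0.30 in mutant 2. Their summed level was 19157 in wild type 2, 15217 in wild type 3 and 14459 to 18623 in the mutants. The part of these 2 lists in the hormone levels was not tested. Of the 7 choroid plexus markers, 6 were detected in all, with a median deviation of -0.12 in wild type 2 and 0.06 in wild type 3. For pineal, striatum, hippocampus, thalamus, cerebellum and meninges it lay between -0.06 and 0.12 in wild type 2 and between -0.26 and 0.08 in wild type 3. Median deviations were taken over genes detected in at least 3 brain libraries, which left 1 pineal and 2 hippocampus genes. The values 0.12 and -0.26 are those of that 1 pineal gene. Muscle markers, of which 3 of 8 were so used, had their highest median deviation, 0.52, in mutant 2, with -0.27 in wild type 3.

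Outside brain the hormone genes were at or near background. In testis 11 of 56 values of the 7 genes were detected and levels lay between 4.12 and 4.90. In muscle 1 of 49 was detected, Lhb in mutant 2, and levels lay between 4.14 and 4.73. In brain 24 of 49 were detected. Over all probes 45.9% of values were detected in testis, 58.1% in brain and 43.5% in muscle. Gh, Prl, Cga and Pomc were detected in 0 of 8 testis and 0 of 7 muscle libraries.

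The genotype comparison in testis and muscle did not use the values that chose the genes. In testis, 2 of the 7 passed the filter of detection on at least 3 arrays, and in limma 0 of 12487 probes passed an adjusted p of 0.05 (0% called, 692 at an unadjusted p under 0.05). Lhb stood at 4.63, 4.29, 4.87 and 4.76 in wild type 1 to 4 and at 4.90, 4.58, 4.84 and 4.57 in mutant 1 to 4. It was detected in all of these but wild type 2, and the groups overlapped. Means were 4.64 ± 0.25 (SD, n = 4) and 4.72 ± 0.17 (SD, n = 4), a difference of 0.08 (SE 0.15, limma adjusted p = 0.937, two-sided exact permutation p = 0.629).

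Tshb in testis stood at 4.32, 4.36, 4.34 and 4.35 in wild type and at 4.72, 4.67, 4.82 and 4.34 in mutant 1 to 4. It was detected in mutant 1, 2 and 3 and in no wild-type library, and mutant 4 lay within the wild-type range. The means were 4.34 ± 0.02 (SD, n = 4) and 4.64 ± 0.21 (SD, n = 4), a difference of 0.29 (SE 0.13, limma adjusted p = 0.833, two-sided exact permutation p = 0.114). The probe passed the filter through the mutants only, the group where it was higher, so its p-values here and below are a description. The difference did not pass the test. Fshb was detected in testis mutant 2 alone, at 4.48 (others 4.17 to 4.26). With 4 against 4 or 3 against 4 mice an exact p cannot fall below 0.0286.

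In muscle 12 of 11391 probes passed in limma, 0.105% of those tested, and 0 of the 7 hormone genes passed the detection filter, so none was tested. Differences of mutant and wild type lay between -0.05 for Fshb and 0.06 for Tshb. All muscle values of the 7 genes are thus bounds rather than levels, save the 1 detected value of Lhb at 4.73.

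With all 22 arrays normalized together, the libraries labelled wild type in brain had the highest group mean for 6 of the 7 genes. For Gh the means were 9.76 ± 4.65 (SD, n = 3) there, 4.76 ± 0.35 (SD, n = 4) in brain mutants and between 4.28 and 4.47 in the 4 other groups. For Gh, neighbouring groups below the first lay within their spread. For Tshb, testis mutants at 5.07 ± 0.39 (SD, n = 4) came after brain wild type at 5.29 ± 1.46 (SD, n = 3). Testis wild type followed at 4.52 ± 0.04 (SD, n = 4), with testis mutant 4 at 4.50. The testis difference of Tshb did not pass in this setting either (limma adjusted p = 0.869), with the probe again kept through the mutants only. Lhb was the gene not highest in brain wild type. It stood at 5.23 ± 0.27 (SD, n = 4) in testis mutants, 5.16 ± 1.16 (SD, n = 3) in brain wild type and 5.07 ± 0.46 (SD, n = 4) in testis wild type, values within each other's spread. Without brain wild type 2, brain wild type was highest for 4 genes.

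The receptors on which these hormones act were measured for 8 of 10 genes. Those of prolactin and luteinizing hormone were not among the 8, and the thyrotropin receptor Tshr was detected in no library on the probe used. Ghr, the growth hormone receptor, stood at 6.98 ± 0.03 (SD, n = 3) and 7.00 ± 0.08 (SD, n = 4) in brain by label, and at 10.86 ± 0.26 (SD, n = 3) and 10.80 ± 0.11 (SD, n = 4) in muscle of wild type and mutants. In testis it was 4.66 ± 0.21 (SD, n = 4) and 4.72 ± 0.17 (SD, n = 4). None of these differences passed (limma adjusted p = 0.999, 0.946 and 0.956). The melanocortin receptor Mc4r was detected in all 7 brain libraries, at 4.73 to 5.04, and Mc3r in 3 of 7, at 4.37 to 4.89 over all. Mc5r, the melanocortin receptor of exocrine glands, was detected on all 7 muscle arrays at 5.25 ± 0.10 (SD, n = 3) and 5.23 ± 0.22 (SD, n = 4). The follicle-stimulating hormone receptor Fshr was detected in 2 of 8 testis libraries on the probe used and was not tested. It has 3 probes, and that used was chosen by its brain mean though detected in 0 brain libraries. The other Fshr probes are not given here, so its detection in testis is not settled. Mc1r was detected in 1 of 8 testis libraries and the adrenocorticotropin receptor Mc2r in 1 of 7 muscle libraries, and neither was tested there.

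Genes of growth hormone signalling through the JAK and STAT5 pathway, and targets of the hormone, showed no call. Of 10 measured, 7 were tested in testis, 3 of them higher in mutants (54.2% of all probes), with a median difference of -0.02 beside 0.02 over all probes. The smallest p was that of the feedback inhibitor Socs2, with a difference of 0.32 (SE 0.17, adjusted p = 0.833 in limma), followed by the kinase Jak2 at 0.15, Stat5a at -0.12 and Socs3 at -0.09. In muscle 8 were tested, 3 of them higher (53.1% of all probes), with a median of -0.09 beside 0.01 over all probes. There Socs2 differed by -0.49 (SE 0.24, adjusted p = 0.581 in limma), Stat5a by -0.36, Socs3 by 0.28 and Igfbp3 by 0.21. The growth factor Igf1, the hormone's main mediator, differed by 0.08 in testis and -0.17 in muscle. In brain 7 were tested. The widest brain ranges of the 10 measured were those of Igfbp3, Stat5a, Igf1 and Socs1, at 0.75, 0.55, 0.53 and 0.50, the first 3 highest in mutant 3. Socs1 was detected in 2 brain libraries and was not tested there.

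Of 12 testis genes that respond to luteinizing or follicle-stimulating hormone, 8 were tested in testis and 3 were higher in mutants, with a median of -0.06. Over all probes tested in testis, 54.2% were higher in mutants and the median was 0.02. Shbg differed by 0.29 (SE 0.17, adjusted p = 0.833 in limma). The steroid enzymes Cyp17a1 and Hsd17b3 differed by -0.32 and -0.20 and the inhibin subunit Inha by 0.15. In muscle 3 were tested, and the activin subunit Inhbb differed by -0.51 (SE 0.10, adjusted p = 0.119 in limma), Fst by 0.28 and Inha by -0.03. In brain 5 were tested, and Inhbb, Inhba, Inha and Fst ranged over 0.70, 0.68, 0.64 and 0.64, none of them highest in wild type 2 or wild type 3.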

How the data were processed

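Trizol-extracted total RNA was purified with an RNeasy kit and turned into biotin-labelled cRNA for Illumina arrays, per the labels. The submitters' processing notes name GenomeStudio 2011.1. For each probe on each array the authors deposited a linear intensity, not normalized, and a detection p-value, as named in the file headers. Their table of processed values has an unknown zero and scaling, and was used only as an alternative.

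Intensities were background-corrected (normexp on negative controls inferred from the detection p-value, offset 16), log2-transformed and quantile-normalized per tissue by the neqc function (limma 3.58.1, R 4.3.3). Probes with a detection p under 0.05 on at least 3 arrays of a tissue were tested with lmFit and eBayes, two-sided, with Benjamini-Hochberg adjustment over all probes kept. Every adjusted p comes from limma. The platform annotation gave 1 symbol to 23978 of the 25697 probes, several to 0, and none to 1719, which were tested but not named.

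The members and gene lists were chosen with earlier results of these data known. By rule, the text names the 7 genes and Sgms1, the 15 genes most alike in brain, the detected hormone receptors, the 4 genes of widest brain range per list, and the 4 of smallest p in testis and muscle for the lists of receptors, growth hormone and gonadotropin response. A list has 1 probe per gene, that of highest brain mean. A list's summed level adds the normalized values of its genes on the linear scale. Other genes were named after their values were seen. Alternatives were no background correction, an offset of 50, median scaling, joint normalization, the processed values, no or a stricter detection filter, a replicate block, trend and robust options, and leaving out libraries. No 2 arrays held identical values.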

Additional observations from a re-analysis of the deposited data

Results flagged for a closer look

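Among 47 sets of 4 libraries of 1 group in which the highest or lowest library was compared with the rest by Dixon's ratio, 2 had a library that stood apart, and chance gives about 1 set in 20. Sgms1 stood at 8.12 in the brain library labelled mutant 2, with the next at 6.57 and the lowest at 6.29 (ratio 0.848), which is the library already described as against its label. Fshb stood at 4.41 in the brain library labelled mutant 1, with the next at 4.23 and the lowest at 4.20 (ratio 0.833). It was not detected in any of the 4 libraries, so these values lie at background. The libraries labelled wild type 2 and wild type 3 belong to a group of 3, which was not examined in this way.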

How the results depend on the processing

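The high levels in brain wild type 2 and 3 chose the hormone genes and were not tested. Differences of these genes by label were negative for all 7 under all alternatives run for them but 1. That was the fit without both libraries, where Fshb alone stayed negative. The detection filters and the trend and robust options cannot change these differences, so they add nothing here. The replicate block was not run for these 7 differences. Tshb and Lhb in testis passed under no alternative in which they were tested (lowest adjusted p 0.566 in limma). Lhb was tested in 17 alternatives and Tshb in 13. Tshb was not kept at a detection p under 0.01 or without testis mutant 1, 2 or 3. Lhb changed direction without testis wild type 2 (-0.04). Counts of probes passing in limma moved in several settings, and the causes were not tested. Testis had 0, and 1 with no detection filter. Brain had 0, between 0 and 5 when 1 library was left out (2 without wild type 1 and 5 without wild type 3), and 6 without wild type 3 and mutant 2 together. Muscle had 12, but 7 without background correction, 37 with median scaling, 4 with the processed values, 4 with no detection filter, 28 with trend and robust options, and 8 to 22 when 1 library was left out (21 for wild type 1, 22 for wild type 3, 19 for mutant 3). Of the 15 genes most like the hormone genes, 2 remained without background correction and 3 to 13 when 1 library was left out (9 for wild type 1, 3 for wild type 2, 9 for mutant 4). Brain wild type was the highest group for 4 to 7 of the 7 hormone genes.

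The replicate number was not used as a pairing in the main fits, since by mouse identifier the genotypes came from separate animals. Libraries of the same number in both genotypes of a tissue correlated in their deviations at -0.01 to 0.14. Libraries of different number were not compared, so these values cannot show whether the number pairs the samples. With the replicate block, 38 probes passed in muscle and 0 in testis and brain, and Tshb in testis kept an adjusted p of 0.839 in limma. Signal near background limits Fshb in every library, and Tshb and Lhb in every library except brain wild type 2, so for them a small change could not be seen in testis or muscle.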
